A study of Mus musculus with 4 samples.

Results

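Lipoprotein assembly was followed in mouse liver through 10 genes: 9 apolipoproteins (Apoa1, Apoa2, Apoa4, Apoa5, Apob, Apoc2, Apoc3, Apoe and Apom) and Mttp, the lipid transfer protein that loads Apob. The rule takes genes by name, the names were chosen with earlier results of these data known, and every probe carrying one of the 10 names was kept. That gave 13 probes on 31 spots, out of 34761 gene names, 55681 probes and 59305 non-control spots on the array. The livers came from male C57BL/6 mice, a common inbred strain, whose feeding on a high-fat, high-sucrose diet began at an age of 5 weeks. One array each was hybridised for 0, 5, 10 and 15 weeks of feeding, so the animals were 5, 10, 15 and 20 weeks old. The 0-week mice had not yet received the diet, and no other allele or agent is named for any group. According to the series description 4 mice were fed for each period. Whether an array holds 1 of them or a pool is not stated. Control-diet mice of matching age were not analysed. Diet time and age, which spans puberty between the first and the second array, therefore cannot be told apart.

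Hepatocytes secrete triglyceride in very-low-density lipoproteins (VLDL), each built on a single Apob molecule that Mttp lipidates in the endoplasmic reticulum. Smaller apolipoproteins then move between VLDL, chylomicrons and high-density lipoproteins (HDL), where they activate or inhibit lipases, bind receptors or hold the particle together. The liver is the main source of most of them, and in mice both liver and intestine make Apoa4.

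Values below are scaled signals, that is, the background-subtracted spot intensity divided by the array's own 75th percentile. Differences are on the log2 scale, and "unscaled" marks the same difference without that division. A gene was called higher or lower at a difference of at least 2-fold, provided the scanner software marked its probe as well above background in both samples. With 1 array per time point no test was possible, and no difference has a replicate check. Probes were printed singly except for Apoa1 and Apoe, which have 10 spots each. The median SD of such repeated probes was 0.064 to 0.073 on the log2 scale, and the software's own error estimate was 10.0% of the signal of a spot. These figures cover spots of 1 array and not animals.

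The arrays had similar quality: 44.5% to 48.3% of non-control spots were well above background, no spot was saturated, and scan time did not differ. The 15-week array was brighter, with a 75th percentile of 272 against 194 to 208 on the others. After scaling, the median measured gene stood at −0.02, −0.01 and −0.25 at 5, 10 and 15 weeks against 0 weeks, and at 15 weeks other scalings put it between −0.19 and 0.26. All 9 hepatocyte markers were above background on every array. Their summed scaled signal was 14358, 12835, 14428 and 9821 at 0, 5, 10 and 15 weeks, and their median difference at 15 weeks was −0.46, or −0.08 without scaling (Serpina1a, the median marker). In bulk liver, fewer cells of a type and less RNA per cell cannot be told apart.

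The sequences of 4 probes and 2 promoters are printed here, and no signal value depends on the promoters. The probes are shown because Apoa4 had the highest and Apom the lowest difference at 15 weeks by the probe used for each gene. Those of Apob are shown because they disagreed. All 4 are 60 bases long and are printed as the scanner files give them, 5′ to 3′, with their positions in build mm9.
Apoa4 probe, chr9:46049661-46050404, plus strand: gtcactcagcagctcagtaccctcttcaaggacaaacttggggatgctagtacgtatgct
Apom probe, chr17:35267047-35267106, minus strand: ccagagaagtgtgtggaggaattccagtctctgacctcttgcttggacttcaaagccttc
Apob probe at transcript position 4473, chr12:8012697-8012756, plus strand: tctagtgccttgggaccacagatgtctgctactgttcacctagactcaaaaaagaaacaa
Apob probe at transcript position 13457, chr12:8023194-8023253, plus strand: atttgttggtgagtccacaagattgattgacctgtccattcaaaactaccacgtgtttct
The position given for the Apoa4 probe spans 744 bases, more than the probe is long. Exons of build mm9 were not used here, so no probe is assigned to one.

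The promoters shown are those of Apoa4 and Apoc2, the 2 genes that were higher at 15 weeks. Each run is the 250 bases before the RefSeq start in build GRCm38.p6, on the gene's strand. Capitals mark CAAAGT, the core of the HNF4 motif, and, in Apoc2, AGGTCA, the nuclear receptor half-site.
Apoa4 promoter, chr9:46240594-46240843, plus strand: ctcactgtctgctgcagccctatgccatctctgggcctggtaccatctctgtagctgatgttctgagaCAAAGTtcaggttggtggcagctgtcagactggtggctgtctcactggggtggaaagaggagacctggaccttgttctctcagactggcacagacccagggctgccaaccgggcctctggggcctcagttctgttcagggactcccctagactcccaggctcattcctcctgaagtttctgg
Apoc2 promoter, chr7:19677942-19678191, minus strand: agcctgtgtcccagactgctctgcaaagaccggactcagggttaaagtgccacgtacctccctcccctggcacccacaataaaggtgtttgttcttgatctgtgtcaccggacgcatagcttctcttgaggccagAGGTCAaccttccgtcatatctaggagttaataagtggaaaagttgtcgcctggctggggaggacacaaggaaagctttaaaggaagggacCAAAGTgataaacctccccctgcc
Both strands were searched in the 250-base windows of 32851 RefSeq promoters, of which 13 belong to 9 of the 10 genes. CAAAGT lay in 12.6% of all windows and, among the 9 genes, in those of Apoa4 and Apoc2. It began 182 bases before the start in Apoa4 and 24 bases before it in Apoc2. AGGTCA lay in 14.0% of all windows and in those of Apoa2 and Apoc2. TATAAA, the TATA box, lay in 12.4% of all windows and in those of Apoa2, Apoa5, Apob and Apoe, and CCAAT lay in 33.8% and in those of Apoa2. None of the 4 motifs contains another. A match describes these letters in these windows and is not a measured binding site.

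Through 10 weeks of feeding all 10 genes stayed within 2-fold of their starting level, and at 15 weeks which of them lay outside it depended on the scaling. At 5 weeks against 0 weeks, 0 of 10 were at least 2-fold different, where 3.87% of 17094 measured genes were (2.3% higher and 1.57% lower). With the hepatocyte markers as the scale Apoa4 was called higher there. At 10 weeks against 0 weeks the count was again 0 of 10, against 4.45% of 17142 genes (2.92% higher and 1.53% lower). At 15 weeks against 0 weeks Apom and Mttp were at least 2-fold lower, which is 2 of 10 against 5.03% of 17560 genes lower, and 0 of 10 were at least 2-fold higher, against 5.76%. These calls hold for scaling to the 75th percentile: without scaling Apom and Mttp differed by −0.69 and −0.68, and Apoa4 was called higher in their place at 1.38. Apoa4 was also the 1 gene called under 6 other alternatives, and with the array median as scale Apoa4 was higher (1.07), Apom lower (−1.003) and Mttp not called (−0.99). In either direction 10.8% of all genes were called in that comparison. All 10 genes were measured in each comparison.

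The median difference of the 10 genes was 0.02 at 5 weeks, −0.00 at 10 weeks and −0.45 at 15 weeks, beside medians of −0.02, −0.01 and −0.25 over all genes. At 15 weeks 8 of the 10 lay below the median gene, and Apoa4 and Apoc2 lay above it. The median probe of each brightness band above 10000 raw units also lay below the median gene, at −0.41 to −0.50. Of the 10 genes Mttp alone averaged less than 10000 raw units. Between fed mice, 0 of 10 differed 2-fold at 10 weeks against 5 weeks (2.09% of all genes, with 0.953% higher and 1.13% lower). Apom was the 1 gene of 10 called at 15 weeks against 10 weeks, where it was lower and 8.01% of all genes were called (3.95% higher and 4.06% lower). It was again the 1 gene called, and lower, at 15 weeks against 5 weeks, where 8.37% of all genes were called (4.08% higher and 4.3% lower). The comparisons share arrays, so the calls of Apom at 15 weeks are not separate observations.

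**Figure D1:**
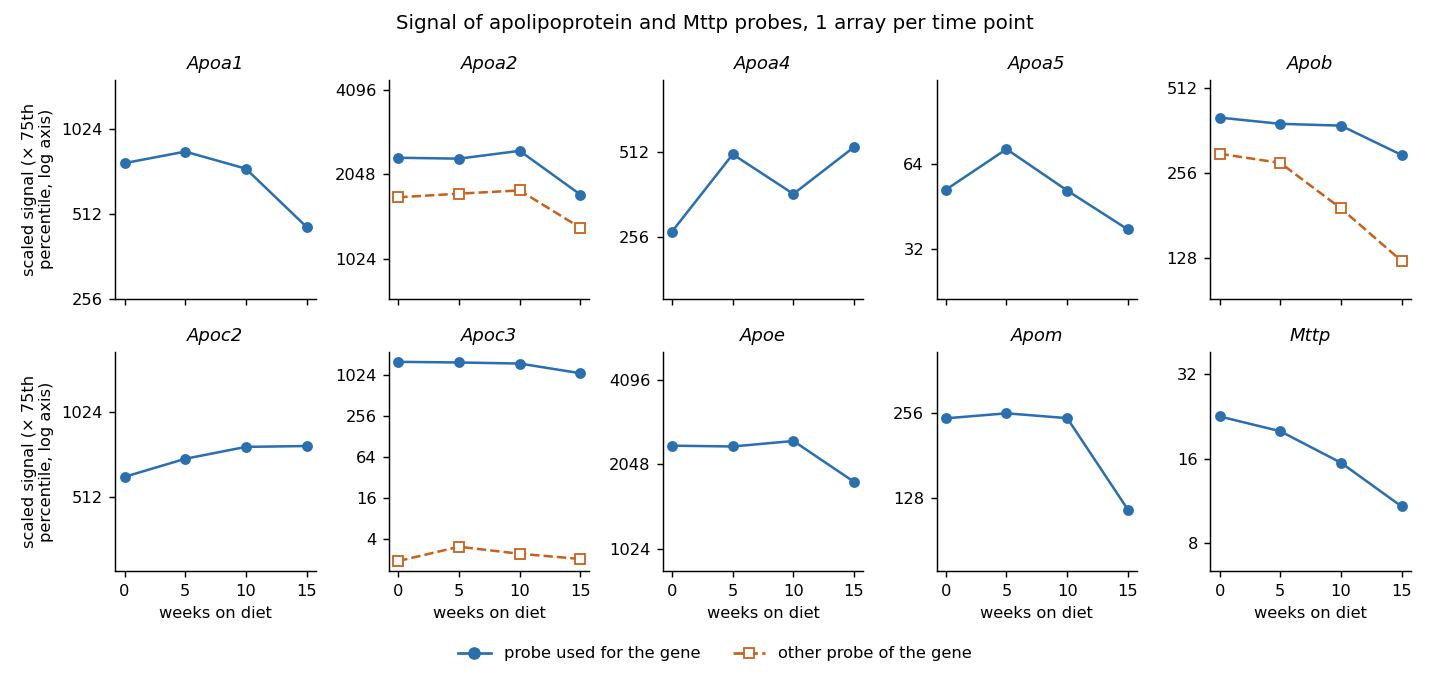
Scaled signal of each gene's probes (multiples of the array's 75th percentile, log axis) against weeks on the diet, 1 array per point. Filled circles are the probe used for the gene and open squares its other probe, and every panel spans the same fold range except that of Apoc3, whose other probe is dim. Apoa4 and Apoc2 end above their 0-week level, and the probes used for the other 8 genes end below it.

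Apob and Mttp form the core of VLDL assembly. Mttp, measured at chr3:137753868-137753927, had scaled signals of 22.6, 20.0, 15.5 and 10.8 at 0, 5, 10 and 15 weeks. Each scaled value was lower than the one before, though with spike-in scaling the 15-week value lay 0.08 above the 10-week value. The differences from 0 weeks were −0.17, −0.55 and −1.06, so that Mttp was 2.09-fold lower at 15 weeks. Without scaling they were −0.18, −0.65 and −0.68, and the 15-week signal then differed from the 10-week signal by −0.03. Over 12 settings of the processing the 15-week difference ran from −1.06 to −0.55 and kept its sign in all 12. The Mttp spot had 5 bright neighbours of 41 on the 5-week array. Leaving that spot out removes the 5-week value and leaves the 10- and 15-week differences as they are.

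Apob encodes the structural protein of VLDL and was read by 2 probes that gave different courses. The probe at transcript position 4473 had scaled signals of 403, 383, 378 and 297, with differences from 0 weeks of −0.07, −0.10 and −0.44. The probe at position 13457, nearer the 3′ end of the message, had scaled signals of 300.0, 278, 192 and 125, with differences of −0.11, −0.64 and −1.27. The first was within 2-fold on every array and the second was 2.40-fold lower at 15 weeks, or 1.84-fold lower without scaling. Which of them follows the level of the gene's RNA cannot be told from these arrays. The change of the first minus that of the second was 0.03, 0.55 and 0.82 at 5, 10 and 15 weeks, a gap that dividing each array by 1 factor cannot move. The probe at position 4473 stands for the gene in the counts above because it is the brighter one. With the mean of both probes, the 15-week difference of Apob was −0.85 in place of −0.44, and with spike-in scaling the probe at position 4473 stood at 0.07. Neither spot had more than 4 bright neighbours.

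**Figure D2:**
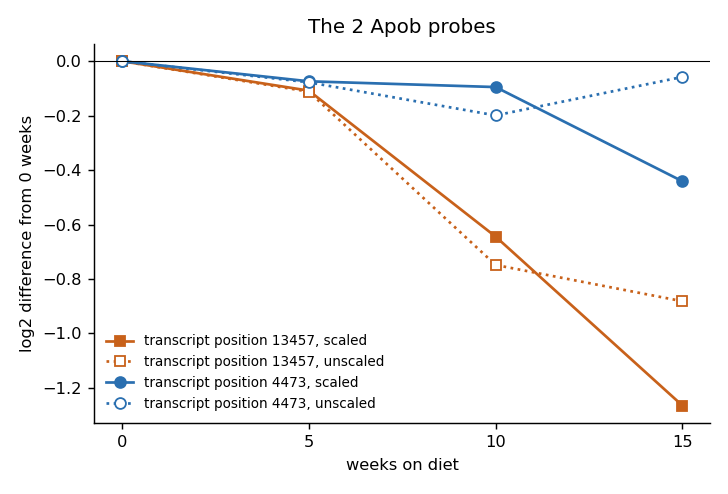
Difference from 0 weeks (log2) of both Apob probes against weeks on the diet, 1 array per point. Solid lines are scaled to the 75th percentile and dotted lines are unscaled. The probes are together at 5 weeks and lie 0.55 apart at 10 weeks and 0.82 apart at 15 weeks with either treatment.

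Apoa1 and Apoa2 encode the main structural proteins of HDL, and Apoa1 also activates the esterifying enzyme Lcat. Apoa1 (chr9:46037921-46037980, 10 spots) had scaled signals of 776, 853, 742 and 461. The 15-week value lay below the other 3 and was 1.69-fold lower than at 0 weeks (−0.75). Without scaling the difference was −0.37, and it was below 0 in all 12 settings, from −0.75 to −0.09. The SD over its 10 spots was 0.032 to 0.047 on the log2 scale in the processed signal and 0.075 to 0.084 in the raw signal. The differences from 0 weeks at 5 and 10 weeks were 0.14 and −0.07.

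Apoa2 was read by probes at chr1:173156445-173156504 and chr1:173156320-173156379. The first had scaled signals of 2345, 2328, 2482 and 1736, and the second 1697, 1749, 1795 and 1323. Both were lowest at 15 weeks, by −0.43 and −0.36 against 0 weeks. Without scaling these differences were −0.05 and 0.02, and with spike-in scaling the first was 0.08. No direction at 15 weeks can therefore be given for Apoa2.

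Apom is a lipocalin of HDL that carries the signalling lipid sphingosine 1-phosphate. By the probe used for each gene, it had the lowest difference of the 10 at 15 weeks against 0 weeks. The other Apob probe, at transcript position 13457, stood lower at −1.27. The scaled signals of Apom were 245, 255, 245 and 116. The first 3 arrays lay within 0.06 of each other on the log2 scale, and the 15-week array stood apart at 2.11-fold lower than 0 weeks (−1.08). Against 10 weeks the difference was also −1.08, and against 5 weeks it was −1.14. Without scaling Apom was 1.62-fold lower at 15 weeks (−0.69), and it was below 0 in all 12 settings, from −1.08 to −0.56. The 2-fold call thus depends on the scaling and the direction does not in the settings run.

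Apoa4 encodes an apolipoprotein of chylomicrons, VLDL and HDL and was the highest of the 10 against 0 weeks at each later time. Its scaled signals were 267, 502, 363 and 533. The 3 fed arrays lay above the 0-week array, by 1.88-fold at 5 weeks (0.91), 1.36-fold at 10 weeks (0.44) and 1.996-fold at 15 weeks, just under the 2-fold threshold. The course was not even: the 10-week value lay 0.47 below the 5-week value, and the 15-week value lay 0.55 above the 10-week one. Without scaling Apoa4 was 2.60-fold higher at 15 weeks (1.38). The 15-week difference was above 0 in all 12 settings, from 0.997 to 1.64. Its spot had at most 1 bright neighbour of 43 on any array.

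Apoa4 also moved away from Apoa1 and Apoa5, which lie near it. In RefSeq Apoa1, Apoc3, Apoa4 and Apoa5 are neighbours on chromosome 9 in that order. The change of Apoa4 from 0 to 15 weeks exceeded that of Apoa1 by 1.75 and that of Apoa5 by 1.47 on the log2 scale. It exceeded that of Apom by 2.07. Dividing each array by 1 factor leaves these gaps as they are. Of the markers that define enterocytes, another source of Apoa4, Alpi, Sis, Lct and Cdx1 were not well above background on any array, and Vil1 was above it at 0 and 15 weeks only, at 0.24 and 0.16. The summed enterocyte marker signal, 219, 316, 327 and 239 at 0, 5, 10 and 15 weeks, was nearly all Fabp2, a fatty acid carrier.

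Apoc2, Apoc3 and Apoa5 set how fast lipoprotein lipase strips triglyceride from particles. Apoc2, the cofactor of the lipase, had scaled signals of 601, 697, 769 and 774 (chr7:20257027-20257086). The fed arrays lay above the 0-week array by 0.21, 0.35 and 0.36, all within 2-fold. Without scaling the 15-week difference was 0.75, or 1.68-fold, and over 12 settings it ran from 0.36 to 0.96. In RefSeq the gene overlaps the predicted gene Gm44805, whose transcripts the probe may share.

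Apoc3, which inhibits the lipase and slows the uptake of remnants, was read by 2 probes of very unequal brightness. The bright probe (chr9:46041134-46041193) had scaled signals of 1616, 1582, 1526 and 1098, with a 15-week difference of −0.56, or −0.18 without scaling. It was below 0 in all 12 settings, though by as little as −0.05 with spike-in scaling. The dim probe (chr9:46043606-46043665), designed to another transcript, had scaled signals of 1.88, 3.04, 2.40 and 2.01 and differences of 0.70, 0.36 and 0.10. Its raw signal was 408 to 652 units.

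Apoa5, a rare plasma protein that aids lipolysis, had scaled signals of 51.8, 72.2, 51.4 and 37.4 (chr9:46079943-46080002). It was highest at 5 weeks (0.48 above 0 weeks) and lowest at 15 weeks (−0.47). The 5-week spot had 10 bright neighbours of 36, and the median excess of all 36 over the other arrays was 0.59, beside the gene's own difference of 0.48. Whether that excess set the 5-week value was not tested, and leaving the spot out leaves no 5-week value. At 15 weeks the difference without scaling was −0.09, and with spike-in scaling it was 0.04, so no direction can be given.

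Apoe, the ligand by which remnants bind hepatic receptors, had scaled signals of 2385, 2370, 2479 and 1774 over its 10 spots (chr7:20281732-20281791). Its 15-week difference was −0.43, or −0.04 without scaling and 0.09 with spike-in scaling, so no direction can be given. Macrophages also make Apoe. The summed signal of the macrophage markers was 163, 292, 362 and 434 at 0, 5, 10 and 15 weeks. At 15 weeks against 0 weeks 9 of 12 measured markers were at least 2-fold higher, beside 5.76% of all genes. The part of these markers in the Apoe values was not tested. The Apoe spots were spread more than most, with SDs of 0.127 to 0.179 in the processed signal against 0.016 to 0.055 in the raw signal.

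**Figure D3:**
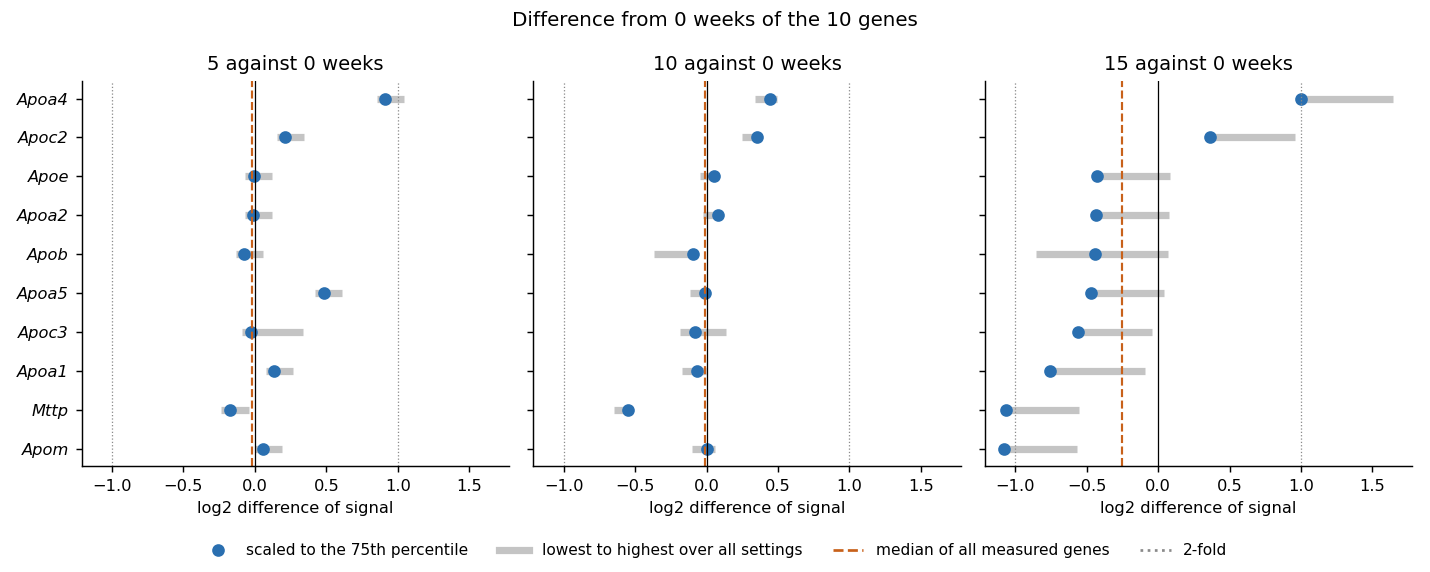
Difference from 0 weeks (log2) of each gene at 5, 10 and 15 weeks. Circles are values scaled to the 75th percentile, grey bars run from the lowest to the highest value over 12 settings (11 for Apoa5 and Mttp at 5 weeks), the dashed line is the median of all measured genes and dotted lines mark 2-fold. At 15 weeks the bars of Apoa4 and Apoc2 lie wholly above 0, those of Apom, Mttp, Apoa1 and Apoc3 wholly below it, and those of Apoa2, Apoa5, Apob and Apoe cross it.

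Several of the 10 genes were among the brightest on the array, where signals varied little before scaling. Apoe averaged 480109 raw units and the main Apoa2 probe 475863, and single Apoe spots reached 65.3% of the saturation value of 776536. Only 35 probes averaged above 300000 raw units, and they include Apoe and both Apoa2 probes. The median range over the 4 arrays of unscaled signals was 0.149 on the log2 scale for those 35 probes, against 0.302 to 0.393 in the dimmer bands from 1000 to 300000 units. Probes of that band had a median 15-week difference of −0.08 unscaled and −0.46 scaled. The scaled differences of Apoa2 and Apoe, −0.43 each, were thus close to those of other probes as bright. Whether such bright spots follow the amount of RNA in proportion was not tested.

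By the probe used for each gene, Apoa4, Apom and Mttp had the largest scaled differences at 15 weeks. Apoa4 averaged 88536 raw units, Apom 47883 and Mttp 3419, all below Apoe and Apoa2. The size of the difference did not follow brightness among the other genes. Apoa1 averaged 147791 raw units and differed by −0.75, while the dimmer Apob (78632) and Apoa5 (12120) differed by −0.44 and −0.47. In the band from 10000 to 50000 units, which holds Apom, the median probe differed by −0.41 at 15 weeks, and Apom by −1.08. In the band from 50000 to 100000 units, which holds Apoa4, the median was −0.44, and Apoa4 stood at 0.997. In the band from 1000 to 10000 units, which holds Mttp, the median was −0.27.

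**Figure D4:**
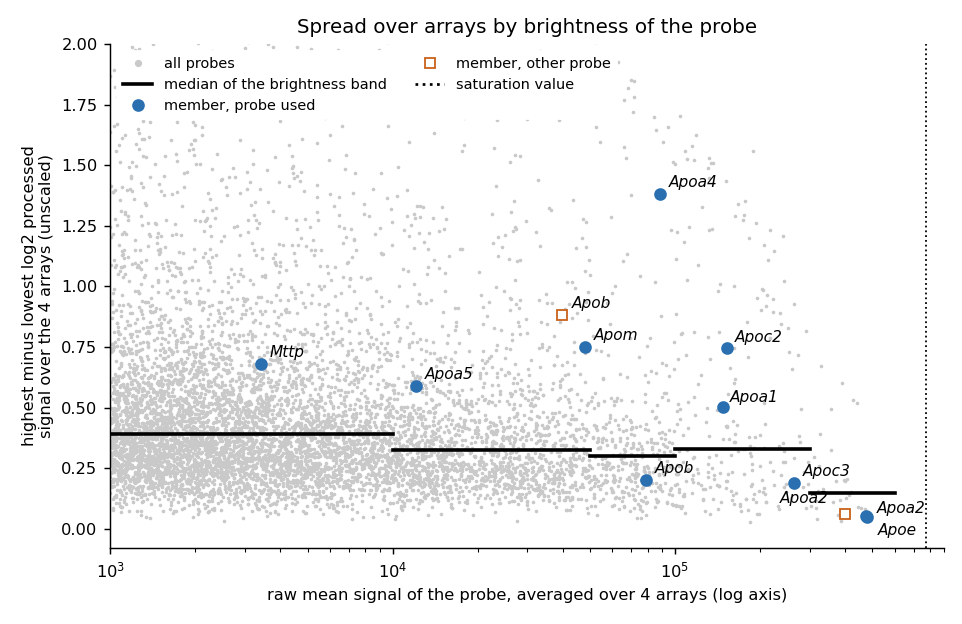
Range of unscaled signal over the 4 arrays (highest minus lowest, log2) against raw mean signal (log axis) for 7769 probes. A further 173 probes lie above the axis. Black bars are band medians, filled circles the probes used for the 10 genes, open squares other probes and the dotted line the saturation value. Apoe, Apoa2 and Apoc3 lie at the bright end with small ranges, and Apoa4 lies far above its band median.

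The genes most like Apom and Mttp over the 4 arrays were looked up among 16683 genes above background on all of them. The measure was the Euclidean distance of centred log2 profiles. By the scaled signal of the probe used, only Apom and Mttp spanned at least 1 on the log2 scale. The other Apob probe spanned 1.27. Without scaling Apoa4 spanned 1.38, Apom 0.75 and Mttp 0.68. Nearest to Apom were an unnamed transcript of chromosome 6 (0.05), the splicing factor gene Luc7l2 (0.09) and an unnamed transcript of chromosome 8 (0.09). Nearest to Mttp were the collagen gene Col20a1 (0.03), Crcp (0.03) and an unnamed transcript of chromosome 8 (0.04). Centring removes the level, and Col20a1 was dim, with scaled signals of 0.18, 0.17, 0.13 and 0.09. The transcript of chromosome 6 was dim too, at 0.36, 0.38, 0.36 and 0.18. With 4 points per profile such likeness is a description only.

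Around the 10 genes, the partners of VLDL assembly followed the median gene for the most part. Of 25 measured genes of VLDL assembly and secretion, 0 were called higher and 2 lower at 15 weeks against 0 weeks, beside 5.76% and 5.03% of all genes, with a median of −0.31. Tm6sf2, whose product helps to lipidate VLDL, had scaled signals of 23.6, 12.05, 18.8 and 8.60 and was 2.74-fold lower at 15 weeks. Lpin1, a phosphatidate phosphatase of triglyceride synthesis, had scaled signals of 7.64, 9.13, 8.98 and 3.25 and was 2.35-fold lower. Without scaling Tm6sf2 stood at −1.07 and Lpin1 at −0.85.

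Direct partners of Mttp and Apob were within 2-fold at 15 weeks. P4hb, the disulfide isomerase that forms the small subunit of the transfer protein, differed by −0.46, less than Mttp at −1.06. Cideb, which serves VLDL lipidation, differed by −0.28. Apobec1, the deaminase that edits Apob messages, had scaled signals of 4.44, 6.32, 6.23 and 8.88 and lay just under the 2-fold threshold at 15 weeks. Without scaling Apobec1 lay beyond 2-fold at 1.38, while P4hb stood at −0.08, Mttp at −0.68 and Cideb at 0.10.

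Among the other apolipoproteins, the furthest above 0 weeks were the serum amyloid A genes, acute phase proteins that ride on HDL. Of 18 measured, the number called higher was 2 at 5 weeks, 5 at 10 weeks and 4 at 15 weeks against 0 weeks, and 0 were called lower each time. The shares of all genes called higher were 2.3%, 2.92% and 5.76%, and the counts include Saa1 with Saa2 and Apol9a with Apol9b, pairs that can share signal. Saa1 had scaled signals of 134, 928, 455 and 387. Saa2 had 64.2, 553, 269 and 240 and can share signal with Saa1, its near-identical neighbour. Saa3 had 5.04, 5.70, 9.44 and 10.4, and Apobr, a receptor of macrophages that binds Apob, was 2.17-fold higher at 15 weeks. Of the genes beside Apoc2 and Apoe on chromosome 7, Apoc1 differed by −0.42 and Apoc4 by −0.70 at 15 weeks, where Apoc2 stood at 0.36 and Apoe at −0.43. Without scaling Apoc1 stood at −0.03, Apoc4 at −0.31, Apoc2 at 0.75 and Apoe at −0.04.

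Among 16 genes of receptors and clearance, 1 was higher and 1 lower at 15 weeks against 0 weeks (5.76% and 5.03% of all genes), with a median of −0.34. Vldlr had scaled signals of 2.28, 0.47, 0.51 and 1.02 and was 4.82-fold lower at 5 weeks and 2.23-fold lower at 15 weeks, where the unscaled difference was −0.78. Cd36, a fatty acid receptor, had 3.81, 2.90, 5.64 and 12.2 and was 3.19-fold higher at 15 weeks.

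Of 18 HDL and lipase factors, 3 were called higher and 0 lower at 15 weeks (5.76% and 5.03% of all genes), with a median of −0.21. Pltp, the phospholipid transfer protein, had scaled signals of 2.97, 7.48, 8.81 and 6.62. Lpl, the lipase that Apoc2 activates, had 6.66, 4.22, 2.50 and 14.0. Abcg1, a cholesterol exporter, was 2.48-fold higher at 15 weeks. Macrophages express Cd36, Lpl, Abcg1 and Apobr too, and the part of the macrophage markers above in these values was not tested. The Apoa1 partners Abca1 and Lcat differed by −0.18 and −0.73, and the hepatic lipase gene Lipc by −0.68. Without scaling Abca1 stood at 0.20, Lcat at −0.34 and Lipc at −0.29.

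Of 23 measured regulators of apolipoprotein genes, 2 were called higher and 0 lower at 15 weeks (5.76% and 5.03% of all genes), with a median of −0.30. They were Srebf1, a regulator of lipogenic genes at 0.69, 1.03, 1.71 and 1.89, and Pparg at 5.90, 5.14, 6.74 and 13.9. Hnf4a, the hepatocyte nuclear receptor whose motif core is marked in the promoters above, had scaled signals of 318, 255, 284 and 179. Creb3l3, which encodes a membrane-bound factor with Apoa4, Apoc2 and Apoa5 among its targets in mice, had 314, 339, 303 and 206. Both were within 2-fold, with 15-week differences of −0.83 and −0.61 (−0.45 and −0.22 without scaling). Apoa4 stood at 0.997, Apoc2 at 0.36 and Apoa5 at −0.47 (1.38, 0.75 and −0.09 without scaling). Any link of Hnf4a or Creb3l3 to these values was not tested.

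**Figure D5:**
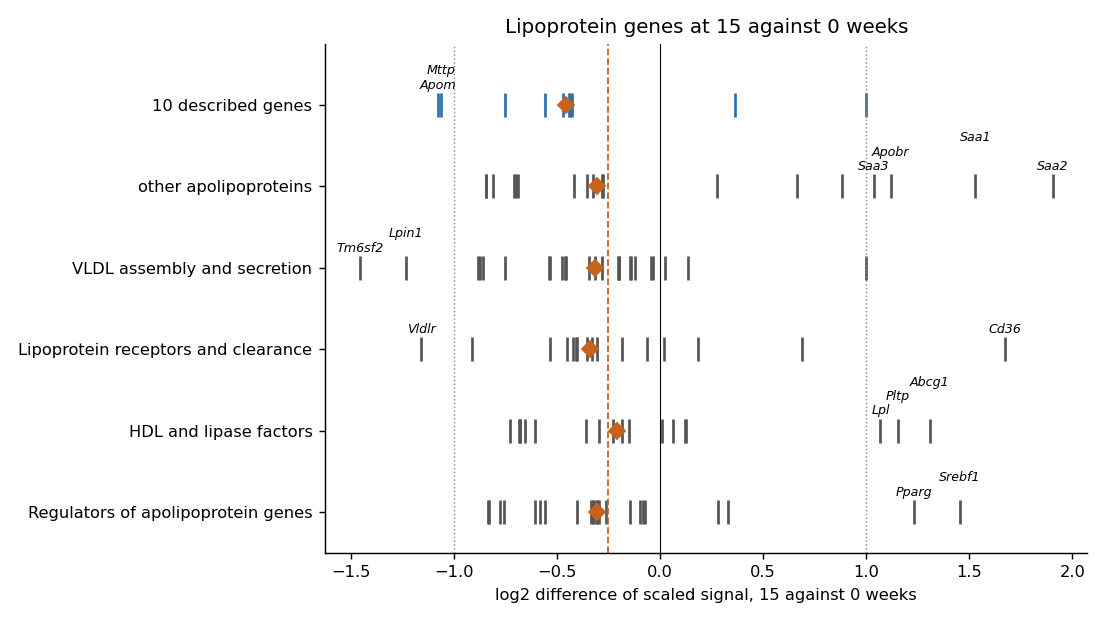
Difference at 15 against 0 weeks (log2) of each measured gene in the 10 genes and in 5 lists of lipoprotein genes. Each tick is a gene, diamonds are list medians, the dashed line is the median of all measured genes at −0.25 and dotted lines mark 2-fold. The named genes lie beyond 2-fold, with serum amyloid A genes and Cd36 at the high end and Tm6sf2 and Lpin1 at the low end.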

How the data were processed

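Liver RNA of 4 samples was hybridised to 1-colour Agilent arrays and read with Agilent Feature Extraction 10.7.3.1, per the file headers. The deposited scanner files hold, per spot, the raw mean and background intensity and a processed intensity, which is linear and already corrected for background and for trends across the slide. The deposited value table of intensity equals the processed signal divided by the array's median over non-control spots, within 0.0002%. Positions are in build mm9, per the file headers.

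Processed signals were scaled to the 75th percentile of the non-control spots of their array, with Python 3.11.15, pandas 2.3.3 and numpy 2.4.6. Outlier or uneven spots (by the software's marks) and controls were dropped, log2 values of repeated spots were averaged, and the brightest probe stood for its gene. A bright neighbour is a spot within 4 rows and 2 columns at least 1 (log2) above its median on the other arrays. All 6 pairs of arrays were compared, with no test. The calling step was run on simulated arrays that held planted changes, spot noise and a uniform shift. Such arrays cannot check variation between animals or the choice of scaling. Quantile normalization and normexp (offset 50) used limma 3.58.1 in R 4.3.3. Of 16 alternatives, 14 were planned and 2 were added after seeing the data.

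The text names all 10 genes, the list genes called in a comparison (at most 12 a list, by size), set partners (some of which are not reported here), and the 3 genes nearest to each of the 10 that spanned 1 (log2). The 10 genes and the lists were chosen with earlier results of these data known. Gene names came from RefSeq GRCm38.p6 for 27509 probes by accession, 3549 by symbol and 404 by older symbol, and the files' own name was used for 24219. Motifs were searched in RefSeq promoters, and Apoc3 was not among them. No column of other samples was present.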

Additional observations from a re-analysis of the deposited data

How the results depend on the processing

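The number of arrays, 1 per time point, limits every value, and no replicate could be left out. No paired analysis was possible because each time point has 1 array and no difference comes from a test. At 15 weeks against 0 weeks the 2 calls (Apom and Mttp lower) became 1 (Apoa4 higher) with the 75th percentile of detected probes, quantile normalization, spike-in scaling, the hepatocyte markers as scale, differences from the median gene, normexp or no scaling. With the array median or the deposited table there were 2, but Apom lower and Apoa4 higher. There were 4 calls (Apoa1, Apom and Mttp lower, Apoa4 higher) at 1.5-fold and 0 at 3-fold. At 15 weeks against 10 weeks the 1 call (Apom lower) became 0 with the array median, the deposited table, the 75th percentile of detected probes, the median gene, normexp or 3-fold, and 2 at 1.5-fold. It was 1 again, but Apoa4 higher, with quantile, spike-in, hepatocyte or no scaling. At 15 weeks against 5 weeks the 1 call (Apom lower) became 0 with the 75th percentile of detected probes, quantile, spike-in, hepatocyte or no scaling, the median gene or 3-fold, and 4 at 1.5-fold (Apoa1, Apoa5, Apom and Mttp lower). At 5 weeks against 0 weeks the 0 calls became 1 (Apoa4 higher) with the hepatocyte scale or at 1.5-fold. At 10 weeks against 0 and 5 weeks the count was 0 in every setting at 2-fold. The alternatives without scaling and without members above 300000 raw units were chosen after seeing the data. Of the differences of single genes under alternatives, 432 moved by less than the spread between spots, 282 by more, and 0 called values changed sign. Causes were not tested.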

Other observations

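Other genes of the lists moved in ways not described above. Pltp was already 2.52-fold higher at 5 weeks and 2.96-fold higher at 10 weeks than at 0 weeks. Lpl was 2.66-fold lower at 10 weeks than at 0 weeks and 5.58-fold higher at 15 weeks than at 10 weeks. Nr1d1, a repressor of the circadian clock, had scaled signals of 1.25, 3.76, 3.08 and 1.52 at 0, 5, 10 and 15 weeks. Saa4, the constitutive serum amyloid A gene, had scaled signals of 33.3, 41.3, 90.1 and 40.3 and was 2.71-fold higher at 10 weeks than at 0 weeks. Apol9a and Apol9b, near-identical interferon-responsive genes whose probes may share signal, were 2.43-fold and 2.10-fold higher at 10 weeks. Apod was 2.39-fold lower at 10 weeks than at 5 weeks, at scaled signals of 0.27, 0.34, 0.14 and 0.21 on the 4 arrays. Ppargc1a, a coactivator of fasting metabolism, was 2.71-fold lower at 15 weeks than at 5 weeks.

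Marker lists of other cell types gave these summed scaled signals at 0, 5, 10 and 15 weeks. Stellate cell markers gave 137, 177, 139 and 215, sinusoidal endothelium 74.6, 90.9, 85.5 and 64.3, and bile duct 12.9, 13.4, 4.04 and 16.0. Adipocyte markers gave 6.24, 29.7, 25.3 and 29.2, erythroid markers 328, 253, 263 and 205, and exocrine pancreas 2.68, 1.12, 1.56 and 1.16. Of the adipocyte markers, Cfd and Fabp4 alone were above background on all 4 arrays. The stellate sum is mostly Dcn (0.61 at 15 weeks against 0 weeks). The median of the 6 stellate markers was 0.74, and Des stood at −0.84. The erythroid sum is mostly Hba-a1, which stood at −0.77. The endothelial sum is mostly Clec4g (−0.39 at 15 weeks against 0 weeks), while the median of the 6 endothelial markers was 0.16. The bile duct sum at 5 weeks is mostly Krt7, which had scaled signals of 0.48, 7.96, 0.14 and 0.40. Krt7 had up to 13 bright neighbours on an array, and their part in its 5-week value was not tested.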
